A study of Mus musculus with 15 samples.

Results

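The mouse zinc finger genes named Zfp900 to Zfp999 were followed in 6DT1 cells, a mouse mammary cancer line, under gain and loss of Smarcd1. Members were taken by name, as every gene of the gene tables whose symbol is Zfp and a 3-digit number that begins with 9, leaving out pseudogene symbols. This list was settled on with earlier results of these data known. Of the 13840 genes in either gene table, 36 had such a symbol, and all 36 had a row in both tables. The name table gave 26 of these symbols and a RefSeq synonym gave the other 10. RefSeq (GRCm38.p6) holds 62 genes with such names, and 26 of them had no row here.

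RNA came from 15 libraries, 3 of each of 5 lines, grown as a monolayer and collected 24 h after plating at 70% confluence. OE carried a Smarcd1 cDNA with a C-terminal Myc tag under a pol2 promoter and EV the empty vector, and both had been selected with blasticidin. KD4 and KD6 each carried 1 short hairpin against Smarcd1 and shScr a scrambled hairpin, and these 3 lines had been selected with puromycin. All 5 lines had thus received a vector and a selection drug, no further treatment was given, and the labels call EV and shScr wildtype, OE over expression, and KD4 and KD6 knockdown. Replicates came from different passages seeded on subsequent days, so each condition rests on 1 line and p values measure the spread between passages of that line. Vector, drug and gene table differ between EV or OE on one side and the hairpin lines on the other, and their effects cannot be told apart.

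Most genes of this name encode KRAB zinc finger proteins. Their C2H2 fingers read DNA sequence, and the KRAB domain binds Trim28 (also called KAP1), which brings the histone H3 lysine 9 methyltransferase Setdb1 and HP1 proteins to the site. Many silence retrotransposons. The genes lie in clusters that grew by tandem duplication, and their content differs between rodent species and between mouse strains. They are usually transcribed at low levels.

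Levels are in CPM (reads scaled to the library total), and the number of reads is unknown, so no counting interval could be given. Changes were fitted with limma on a log2(CPM + 1) scale, which understates the change of low genes, and p values were adjusted over all genes of a fit, with a pass under 0.05. The listed genes took 894250 to 923092 CPM of each library, and the 14 mitochondrially encoded genes took 5.54% to 6.51% of that sum in EV and OE and 4.35% to 5.49% in the hairpin lines. Of 9 epithelial markers, Krt8, Krt18 and Krt19 had rows, with a sum of 660 to 960 CPM, while Epcam and Cdh1 had none. Of the markers of fibroblasts, immune, endothelial, fat and myoepithelial cells, Pdgfra (2.54 to 7.75 CPM) and Cd68 (27.4 to 68.7 CPM) had a row in both gene tables, and Kdr and Acta2 in the OE and EV table only, at 0.854 to 2.19 CPM. Smarcd1 itself, one of the BAF chromatin remodelling subunits, was at 29.6 ± 2.37 CPM (SD, n = 3) in EV, 65.7 ± 4.40 in OE, 15.3 ± 1.01 in shScr, 9.13 ± 0.121 in KD4 and 14.4 ± 1.03 in KD6. Smarcd1 passed in OE against EV (log2 change 1.12, adjusted p = 0.00355) and in KD4 against shScr (adjusted p = 0.000873). With KD4 and KD6 as 1 group against shScr, Smarcd1 did not pass (log2 change -0.39, SE 0.17, adjusted p = 0.268). It passed when both hairpin lines were averaged in a fit of 3 groups (log2 change -0.39, SE 0.07, adjusted p = 0.013). The OE call was lost without EV replicate 3 (log2 change 1.13, adjusted p = 0.0520) or OE replicate 2 (1.13, adjusted p = 0.0533), and on transcript values summed per gene, where OE was at 37.3 CPM and EV at 29.4, the log2 change was 0.34 (adjusted p = 0.769). In the line labelled KD6 Smarcd1 did not pass (log2 change -0.09, 95% interval -0.28 to 0.10, adjusted p = 0.701), so that a direction drawn from KD6 belongs to the line so labelled.

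All 36 zinc finger genes were detected at low to moderate levels in every line. Mean CPM over the 15 libraries ran from 1.14 for Zfp964, 1.38 for Zfp939, 1.95 for Zfp934 and 2.01 for Zfp938 to 16.5 for Zfp930, 18.0 for Zfp961, 20.6 for Zfp945 and 34.6 for Zfp948. Per kilobase of exon listed in GENCODE M1, Zfp948 (13.2 CPM per kb) and Zfp930 (12.5 CPM per kb) were the highest and Zfp974 (0.684 CPM per kb) the lowest. For Zfp930 the listed exons come to 1323 bases for a protein of 440 amino acids, so untranslated ends are missing. Ranks per kilobase thus depend on how complete the listed exons are. Zfp945, with the second highest CPM, came to 2.02 CPM per kb because its listed exons are long (10173 bases). The summed CPM of the 36 genes was between 270 and 364 in a library. Replicates of a line differed by a median SD of 0.12 in EV and OE and 0.16 in the hairpin lines on the log2(CPM + 1) scale. Genes within the same CPM range had medians of 0.12 and 0.14. Gene and transcript values were on the same scale (a median ratio of 1 in every library for genes with 1 listed transcript), which is why lines of both gene tables are set side by side as levels. Tests were made within a table.

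**Figure D1:**
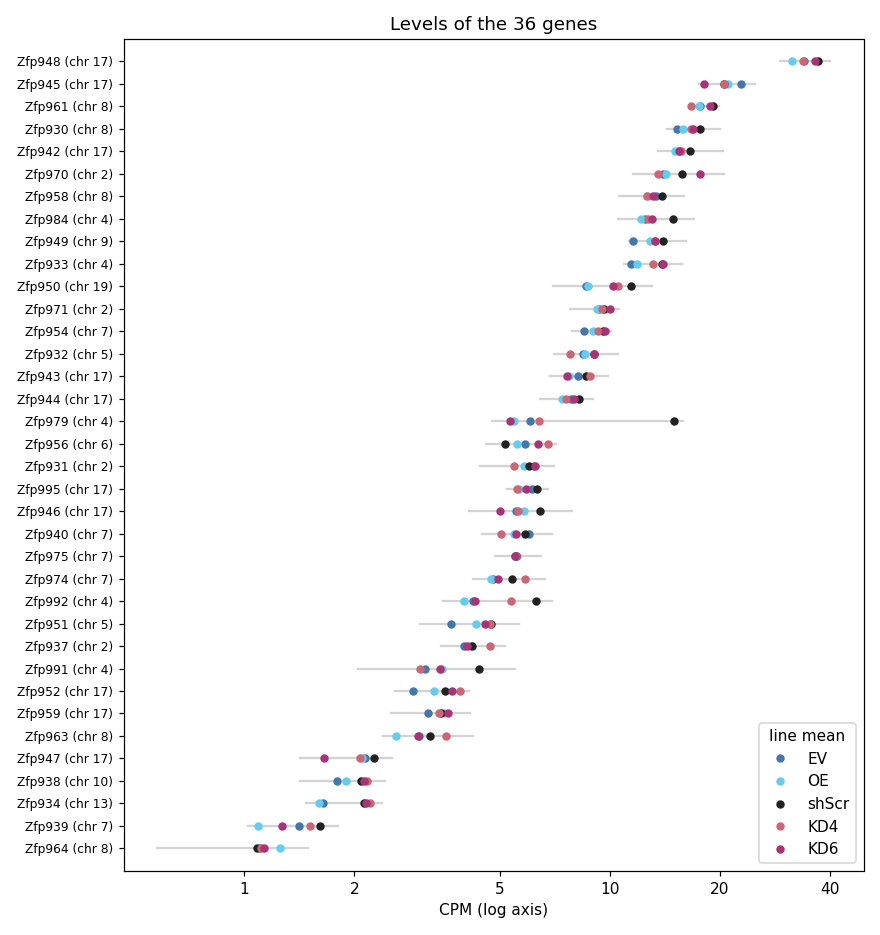
Mean CPM of each of the 36 genes in EV, OE, shScr, KD4 and KD6 (points, n = 3 libraries each) on a log axis, with the range over all 15 libraries as a gray bar and the chromosome beside the name. The line means of most genes lie close together, and the shScr mean of Zfp979, 15 CPM, stands apart from its other line means of 5.34 to 6.39 CPM.

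The first comparison asked what overexpression of Smarcd1 did to these genes. In these bulk samples, fewer cells of a kind and less RNA per cell cannot be told apart. No member passed in OE against EV, no member had an unadjusted p under 0.05, and over all 13501 genes 0.00741% passed, which was Smarcd1 alone, while 1749 genes had an unadjusted p under 0.05. The log2 changes of the 36 ran from -0.21 to 0.20, with a median of -0.02 beside 0.01 for all genes. Zfp939 had the smallest p, at 1.45, 1.43 and 1.36 CPM in EV and 1.16, 1.02 and 1.10 in OE. The OE libraries of Zfp939 all lay below the EV libraries, with a log2 change of -0.21 (95% interval -0.44 to 0.02, adjusted p = 0.432). Zfp949 stood at 11.4, 11.3 and 12.2 CPM in EV and 13.4, 12.3 and 13 in OE, all OE libraries above all EV libraries, with a log2 change of 0.14 (adjusted p = 0.452). Zfp939 and Zfp949 were the 2 members of 36 whose groups did not overlap, where 20% of all genes did not. Zfp945 (log2 change -0.11) and Zfp951 (0.20) came next, with overlapping groups and adjusted p of 0.559 and 0.575.

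The second comparison asked what the hairpins against Smarcd1 did. Zfp979 fell in KD against shScr, with KD4 and KD6 as 1 group, and it was the only one of the 36 to pass, where 2.66% of all 13669 genes passed. Zfp979 stood at 15.7, 15.9 and 13.5 CPM in shScr, at 5.84, 6.46 and 6.87 in KD4, and at 4.75, 5.44 and 5.83 in KD6. Every shScr library was thus above every hairpin library by a wide margin. The mean was 15 ± 1.34 CPM in shScr (SD, n = 3) and 5.86 ± 0.748 in KD (n = 6). On the log2 scale the difference was -1.23 (SE 0.11, adjusted p = 0.000415), 42.7% of the control value.

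Each hairpin line gave Zfp979 alone among the 36. The log2 change was -1.12 (SE 0.11, adjusted p = 0.000225) in KD4, where 9.58% of all genes passed, and -1.34 (SE 0.11, adjusted p = 0.000286) in KD6, where 2.91% passed. Both comparisons use the same 3 shScr libraries. The fibroblast marker Pdgfra was also different in KD4, at 7.12 to 7.75 CPM against 2.54 to 3.55 in shScr and 4.42 to 5.11 in KD6, while the other 5 fibroblast markers had no row, and its part in these results was not tested. The fall in KD6 stood beside a Smarcd1 level that was not detectably different from shScr, and the fall in KD4 beside a lower one. KD6 and KD4 did not differ detectably from each other in Zfp979 (log2 change -0.22, 95% interval -0.45 to 0.01, adjusted p = 0.309).

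**Figure D2:**
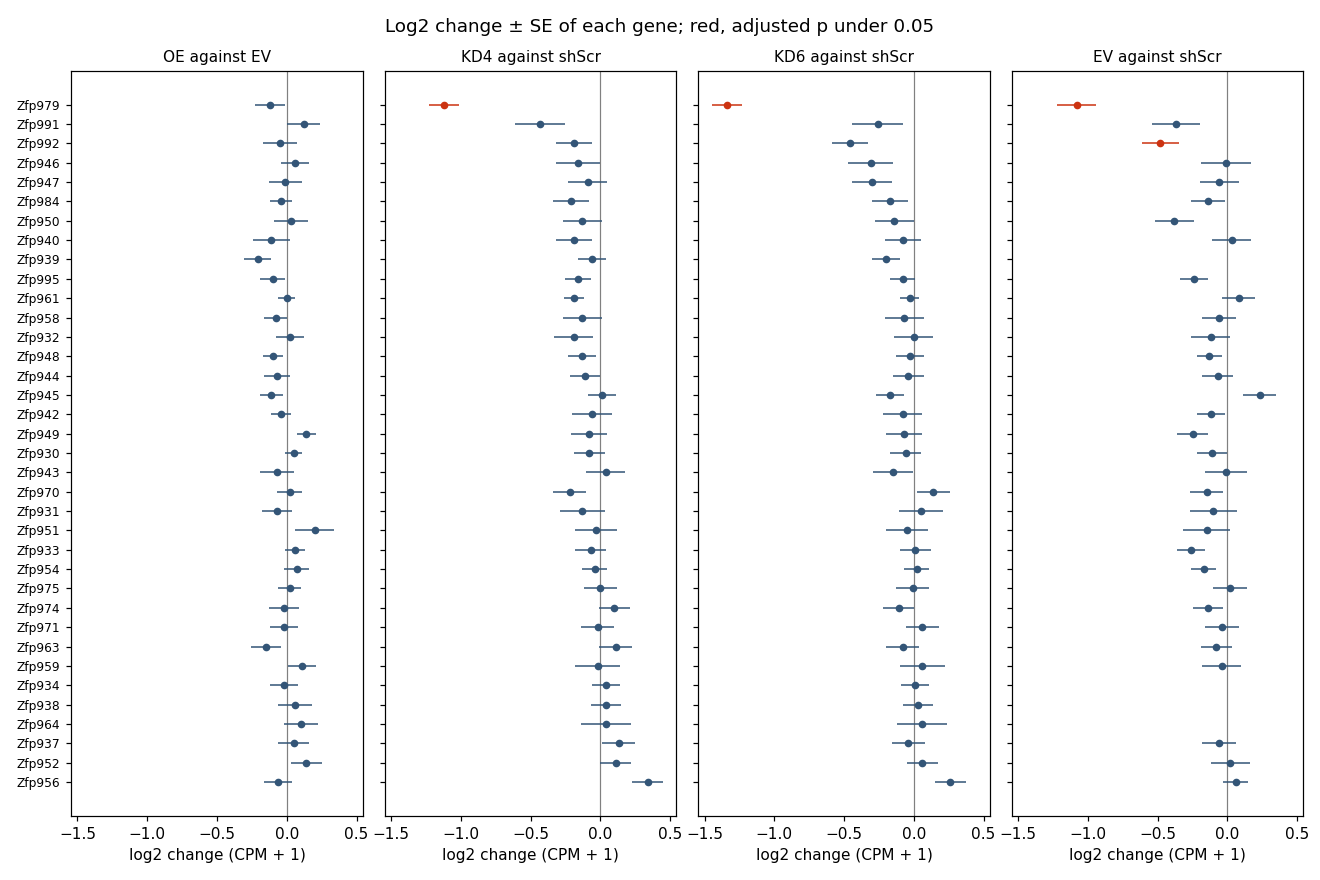
Log2 change ± SE on the log2(CPM + 1) scale for each gene in 4 comparisons, ordered by the KD against shScr change, with genes that passed an adjusted p of 0.05 in red. Zfp979 is at -1.12 in KD4, -1.34 in KD6 and -1.08 in EV, each against shScr, and at -0.12 in OE against EV; 4 genes without a row in the transcript table are absent from the EV panel.

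Zfp979 is listed in RefSeq under the synonym Ssm1b, a strain-specific modifier known for the DNA methylation of a transgene in mice. It was also compared between both controls, in a fit of all 5 lines to transcript values summed per gene. In that fit Zfp979 was lower in EV than in shScr (log2 change -1.08, SE 0.14, adjusted p = 0.000316), where 15.8% of 13142 genes passed, and lower in OE than in shScr (log2 change -1.19, SE 0.14, adjusted p = 0.000157), where 8.14% passed. EV and OE did not carry a hairpin. In the gene tables EV was at 6.55, 6.24 and 5.33 CPM and OE at 5.84, 4.76 and 5.77. The order of the line means was shScr (15 CPM), KD4 (6.39), EV (6.04), OE (5.46) and KD6 (5.34). Below shScr no pair of lines that was tested passed, with a log2 change of -0.07 for EV against KD4 (95% interval -0.36 to 0.23), 0.21 for EV against KD6 (-0.09 to 0.50) and -0.12 for OE against EV (-0.37 to 0.12).

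The 12 libraries of EV, OE, KD4 and KD6 ran from 4.75 to 6.87 CPM for Zfp979, with a mean of 5.81 ± 0.666 (SD, n = 12), and the mean of shScr was 2.59 times that. Zfp979 was the only one of the 36 whose 3 shScr libraries all lay above, or all below, the other 12 libraries. Of the 13330 genes with a row in both, 5.76% did so, 325 above and 443 below. The effect of OE on Zfp979 (against EV) and of KD (against shScr) differed by 1.04 on the log2 scale (SE 0.18, adjusted p = 0.0117), where 1.9% of all genes passed. With the replicate number as a block this call was lost (adjusted p = 0.0518).

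Zfp979 has a coding transcript with a KRAB pattern and 3 C2H2 fingers by the letters searched, the fewest of the 35 members that could be read. Of the 50-base stretches of its coding transcript with the longest protein, 23.9% also occur in a coding transcript of another gene. Part of its reads may thus not be assigned with certainty, but read length was not considered and noncoding copies were not searched. Both of its listed transcripts were higher in shScr. ENSMUST00000037565 stood at 8.35, 6.76 and 4.77 CPM in shScr and at 0.982 to 4.97 in the 6 KD libraries. ENSMUST00000105720 stood at 4.69, 8.40 and 7.07 in shScr and at 0.993 to 4.44 in KD. Neither passed over the 30220 transcripts (log2 change -1.06 and -1.11, adjusted p = 0.222 and 0.182). The SD over the shScr replicates was 1.79 and 1.88 CPM for these transcripts and 1.68 CPM for their sum.

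The promoters of Zfp979 and its chromosome 4 neighbours Zfp984 and Zfp933 are shown because Zfp979 differed between lines while the other two passed in none of these comparisons. RefSeq windows (GRCm38.p6, 250 bases before to 50 after the start) are written 5′ to 3′ along the gene, from the reference and not from 6DT1 cells. Capitals mark a CCAAT box (CCAAT or its complement ATTGG) or a GC box (GGGCGG or CCGCCC), on either strand.
Zfp979, chr4:147642459-147642758, minus strand: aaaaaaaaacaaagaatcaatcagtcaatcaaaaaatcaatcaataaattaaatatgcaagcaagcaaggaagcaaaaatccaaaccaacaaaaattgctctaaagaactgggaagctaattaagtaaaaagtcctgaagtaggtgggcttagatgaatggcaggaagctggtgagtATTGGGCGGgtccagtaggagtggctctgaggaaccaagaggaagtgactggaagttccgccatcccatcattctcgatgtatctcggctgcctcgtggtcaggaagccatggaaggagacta
Zfp984, chr4:147809739-147810038, minus strand: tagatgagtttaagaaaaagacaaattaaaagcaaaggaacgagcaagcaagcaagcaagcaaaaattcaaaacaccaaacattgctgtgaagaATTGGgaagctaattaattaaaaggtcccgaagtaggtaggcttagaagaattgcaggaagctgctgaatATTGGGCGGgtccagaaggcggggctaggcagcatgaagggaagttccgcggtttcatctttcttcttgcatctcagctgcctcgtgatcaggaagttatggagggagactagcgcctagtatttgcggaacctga
Zfp933, chr4:147848369-147848668, minus strand: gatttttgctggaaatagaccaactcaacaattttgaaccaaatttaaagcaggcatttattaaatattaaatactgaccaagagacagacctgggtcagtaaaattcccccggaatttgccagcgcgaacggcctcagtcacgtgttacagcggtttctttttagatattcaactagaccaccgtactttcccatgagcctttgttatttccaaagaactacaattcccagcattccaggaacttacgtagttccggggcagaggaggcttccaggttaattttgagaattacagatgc
Over 496 pairs of the 32 members with a window, the median identity was 42.3% of alignment positions, gaps included. The Zfp979 and Zfp984 windows were identical at 67.9% of such positions. The longest run that both share, tattgggcgggtccag, holds a CCAAT box and a GC box that overlap. The Zfp933 window had neither motif. In KD4 the log2 change against shScr was -1.12 for Zfp979 and -0.21 for Zfp984 (adjusted p = 0.371), and a test of the difference between these genes was not made.

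Zfp979 lies on chromosome 4 with Zfp992, Zfp991, Zfp984 and Zfp933, in the order Zfp992, Zfp991, Zfp979, Zfp984 and Zfp933. In RefSeq 1 protein-coding gene, also a zinc finger gene, lies between Zfp979 and Zfp984, and none between Zfp984 and Zfp933. All 5 had a lower mean in KD and in EV than in shScr, beside 50.2% and 47.6% of all genes. Their median log2 change, Zfp979 included, was -0.33 in KD (-0.07 for all 36) and -0.37 in EV (-0.10 for the 32 in that fit). In shScr 4 of the 5 had their highest line mean, beside 21% of all genes. Of their 50-base stretches, 75% (Zfp991), 48.3% (Zfp984), 39.9% (Zfp992), 23.9% (Zfp979) and 0.454% (Zfp933) also occur in another gene. The part of reads from such stretches in this pattern was not tested. The 10 members on chromosome 17 had a median of -0.08 in KD and -0.05 in EV, and none passed in any comparison.

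Zfp992 was the other chromosome 4 gene to pass anywhere. It stood at 6.96, 6.72 and 5.18 CPM in shScr, at 3.49, 4.10 and 5.09 in EV, at 4.21, 3.76 and 4.04 in OE, at 5.18, 6.10 and 4.83 in KD4, and at 4.47, 3.74 and 4.60 in KD6. Its shScr libraries lay above those of EV, OE and KD6 but not of KD4. Zfp992 was lower in EV than in shScr (log2 change -0.48, SE 0.13, adjusted p = 0.0258) and lower in OE than in shScr (log2 change -0.53, SE 0.13, adjusted p = 0.0226). The EV call was lost with groups of 2 libraries, at a log2 change of -0.38 without EV replicate 1 (adjusted p = 0.109), -0.47 without EV replicate 2 (0.0594), -0.41 without shScr replicate 1 (0.0993) and -0.44 without shScr replicate 2 (0.0748). The OE call was lost at a log2 change of -0.56, -0.50 and -0.54 without OE replicate 1, 2 or 3 (adjusted p = 0.0538, 0.0849 and 0.0711) and of -0.47 and -0.49 without shScr replicate 1 or 2 (adjusted p = 0.0951 and 0.0842). Direction and most of the size thus stayed. In KD against shScr Zfp992 did not pass (log2 change -0.33, adjusted p = 0.226), nor in KD6 (log2 change -0.46, adjusted p = 0.0932).

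Zfp991 stood at 5.49, 4.22 and 3.42 CPM in shScr and at 2.04 to 3.72 in the KD libraries, with a log2 change of -0.35 in KD (adjusted p = 0.284) and -0.43 in KD4 (adjusted p = 0.168). The groups overlapped, and 75% of the 50-base stretches of Zfp991 also occur in another gene. Zfp984 (12.4 to 17 CPM in shScr, 10.5 to 14.1 in KD) and Zfp933 (12.1 to 15.3 and 12 to 15.8) overlapped between groups throughout. In EV Zfp933 (10.9 to 12.1 CPM) had a log2 change of -0.26 against shScr (adjusted p = 0.0893).

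**Figure D3:**
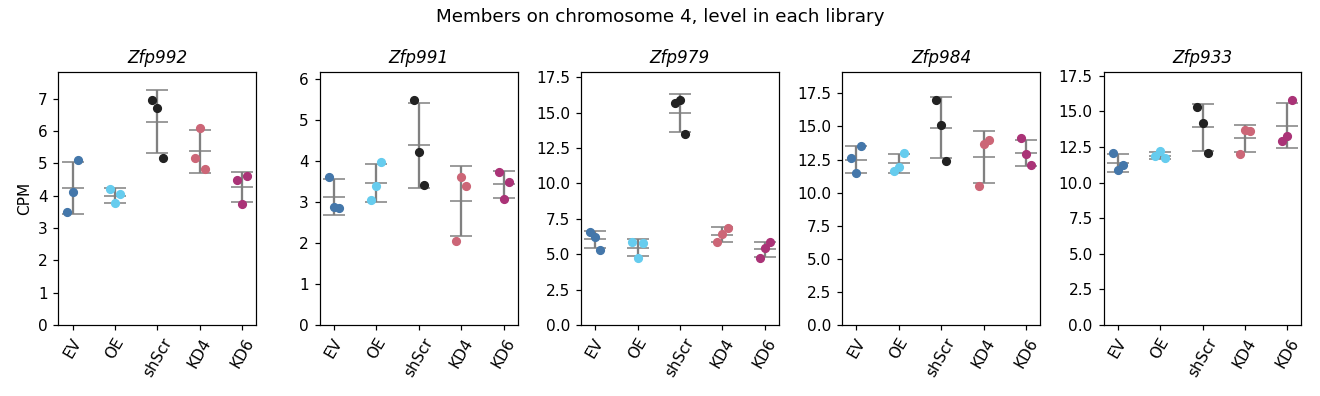
CPM of the 5 genes on chromosome 4, in their order on the chromosome, in each library (points) with the mean and SD of each line (gray, n = 3). The shScr points of Zfp979, 13.5 to 15.9 CPM, stand clear of the other 12 libraries, and the shScr points of the 4 others meet those of at least 1 other line.

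The remaining members differed little between hairpin lines and shScr. Besides Zfp979, 3 of the 36 had an unadjusted p under 0.05 in KD against shScr, Zfp956, Zfp992 and Zfp991, where 2364 of 13669 genes did. Zfp956, on chromosome 6, was the only one of these with a higher value, at 4.57, 6.04 and 4.89 CPM in shScr, 6.69, 6.76 and 6.90 in KD4 and 7.11, 6.13 and 5.79 in KD6. Its KD4 libraries all lay above shScr and its KD6 libraries did not, with a log2 change of 0.30 in KD (95% interval 0.08 to 0.52, adjusted p = 0.147), 0.34 in KD4 (adjusted p = 0.0840) and 0.26 in KD6 (adjusted p = 0.310). Zfp946 had a log2 change of -0.24 in KD (adjusted p = 0.420) and -0.31 in KD6 (adjusted p = 0.400). Zfp947 was at -0.30 in KD6 (adjusted p = 0.348).

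In KD4 Zfp961 lay at 16.7, 16.8 and 16.7 CPM against 19.5, 19.9 and 18.1 in shScr. The groups did not overlap, and the log2 change was -0.19 (adjusted p = 0.136). Zfp970 had a log2 change of -0.22 in KD4 (adjusted p = 0.307). Libraries did not overlap for 1 of the 36 in KD against shScr (10.8% of all genes), for 3 in KD4 (29.5%) and for 3 in KD6 (22.2%), which are shares below those of all genes. In KD6 these were Zfp979, Zfp992 and Zfp939.

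Over the 36, the median log2 change was -0.07 in KD, -0.08 in KD4 and -0.05 in KD6, beside 0.00 for all genes each time. A lower mean in KD than in shScr was found for 27 of 36 (75.0%, beside 50.2% of all genes). The median in KD moved with the shScr library left out, as it was 0.00 without shScr replicate 1 and -0.12 without shScr replicate 3.

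KD6 was also set against KD4, since the hairpins differed in Smarcd1 (log2 change 0.60, adjusted p = 0.00292). No member passed, where 4.91% of all genes did, and 1 of 36 had an unadjusted p under 0.05 (2385 of 13669 genes). That one was Zfp970, at 11.6, 15.2 and 13.6 CPM in KD4 and 16.0, 16.2 and 20.5 in KD6, without overlap (log2 change 0.36, 95% interval 0.09 to 0.63, adjusted p = 0.142). Zfp961 (0.16, adjusted p = 0.292) and Zfp992 (-0.27, adjusted p = 0.307) followed. Libraries did not overlap for 7 of the 36, where 21.6% of all genes did not. Zfp961 and Zfp970 were higher in KD6, and Zfp939, Zfp945, Zfp963, Zfp979 and Zfp992 lower.

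Zfp970 has a close relative in Zfp971 on chromosome 2, with 91.9% identity (gaps included) between their promoter windows, the highest of all pairs. Both windows are shown because the genes nearly share this sequence, with the motifs in capitals as above.
Zfp970, chr2:177464492-177464791, plus strand: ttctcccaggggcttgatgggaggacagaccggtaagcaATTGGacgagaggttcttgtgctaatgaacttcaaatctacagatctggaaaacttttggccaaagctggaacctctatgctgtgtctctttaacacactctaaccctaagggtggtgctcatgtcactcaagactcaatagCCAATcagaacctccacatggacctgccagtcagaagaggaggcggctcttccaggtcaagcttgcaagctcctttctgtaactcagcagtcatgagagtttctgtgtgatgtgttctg
Zfp971, chr2:178023034-178023333, plus strand: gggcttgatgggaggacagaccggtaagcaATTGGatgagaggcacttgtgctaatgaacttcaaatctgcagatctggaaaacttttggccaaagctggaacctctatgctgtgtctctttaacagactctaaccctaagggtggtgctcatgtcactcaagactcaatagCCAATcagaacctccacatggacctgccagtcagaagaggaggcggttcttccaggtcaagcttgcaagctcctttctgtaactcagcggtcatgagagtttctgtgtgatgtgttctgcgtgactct
Each holds 2 CCAAT boxes, one on either strand. Zfp971 stood at 7.79, 10.0 and 10.6 CPM in KD4 and at 9.59, 9.76 and 10.6 in KD6, with overlap, so that only Zfp970 of this pair separated both hairpin lines, and a test of the difference between both genes was not made. Of their 50-base stretches 48.7% (Zfp970) and 39.9% (Zfp971) also occur in another gene, and reads of such genes may be split between copies.

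Both controls were compared in the 5-line fit. No change was aimed at Smarcd1 in either, yet Smarcd1 was higher in EV than in shScr (log2 change 0.90, SE 0.10, adjusted p = 7.48e-05), so this is no comparison at an equal Smarcd1 level. Of 32 members in the transcript table, 0 were higher and 2 lower in EV than in shScr, Zfp979 and Zfp992, and 7 had an unadjusted p under 0.05 (4362 of 13142 genes). The 2 of 32 compare with the 15.8% of all genes given above. The median log2 change was -0.10 beside 0.02 for all genes, and 26 of 32 (81.2%) had a lower mean in EV, beside 47.6% of all genes. Without shScr replicate 1 the median was -0.04. Cd68, a macrophage marker, was at 62 to 63.5 CPM in EV and 32.3 to 38.7 in shScr, while Ptprc, Adgre1 and Csf1r had no row, and its part was not tested. Zfp950 (log2 change -0.38, adjusted p = 0.0776) and Zfp995 (-0.24, adjusted p = 0.113; its listed transcripts hold 68.5% of its gene value) were next by p with Zfp933 and Zfp991. Zfp950 stood at 9.86, 7.00 and 8.96 CPM in EV and at 12.3, 11.5 and 10.5 in shScr in the gene tables, without overlap. In the transcript sums 5 of 32 did not overlap, all lower in EV (Zfp949, Zfp950, Zfp974, Zfp979 and Zfp992), where 38.9% of all genes did not.

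By line, shScr had the highest mean for 14 of the 32 (43.8%, beside 21% of all genes), KD4 for 7 (21.9%, beside 25%), KD6 for 6 (18.8%, beside 14.1%), EV for 3 (9.38%, beside 24.2%) and OE for 2 (6.25%, beside 15.8%). EV had the lowest mean for 10 (31.2%, beside 24.3% of all genes), OE for 8 (25%, beside 13.8%), KD6 for 7, KD4 for 5 and shScr for 2 (6.25%, beside 25.1%). In OE against shScr, Zfp948 (log2 change -0.22, adjusted p = 0.156), Zfp984 (-0.30, adjusted p = 0.160), Zfp950 (-0.32, adjusted p = 0.184) and Zfp995 (-0.22, adjusted p = 0.204) came next after Zfp979 and Zfp992. These comparisons share the shScr libraries with those of the hairpin lines.

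The level of the group also moved from library to library within a line. In KD4 replicate 1, 33 of the 36 lay below their KD4 mean (median deviation -0.14 on the log2 scale), and in shScr replicate 3, 32 of 36 did (-0.13). In EV replicate 2 and OE replicate 2 it was 29 and 28 of 36 (-0.07 and -0.06). In shScr replicate 1 only 5 of 36 lay below (0.10). The median deviation of all genes in these 5 libraries lay between -0.02 and 0.01, and that of the other Zfp genes was -0.05 in KD4 replicate 1, -0.01 in shScr replicate 3, -0.06 in EV replicate 2, -0.04 in OE replicate 2 and 0.00 in shScr replicate 1. In EV replicate 2 and OE replicate 2 the other Zfp genes thus lay about as low as the 36. The mitochondrial share was 4.54% in KD4 replicate 1 and 4.35% in shScr replicate 3, beside 4.85% to 5.49% in the other libraries of these lines. It was also the lowest of its line in EV replicate 2 (5.54%), OE replicate 2 (5.94%) and KD6 replicate 1 (4.42%). In KD6 replicate 1, 27 of the 36 lay below their line mean (median deviation -0.06). In every line, the library with the lowest share was thus the one with most members below the line mean. The part of RNA quality or depth in this was not tested. A line mean of these genes thus rests on libraries that differ together, and the 36 are not independent of each other.

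**Figure D4:**
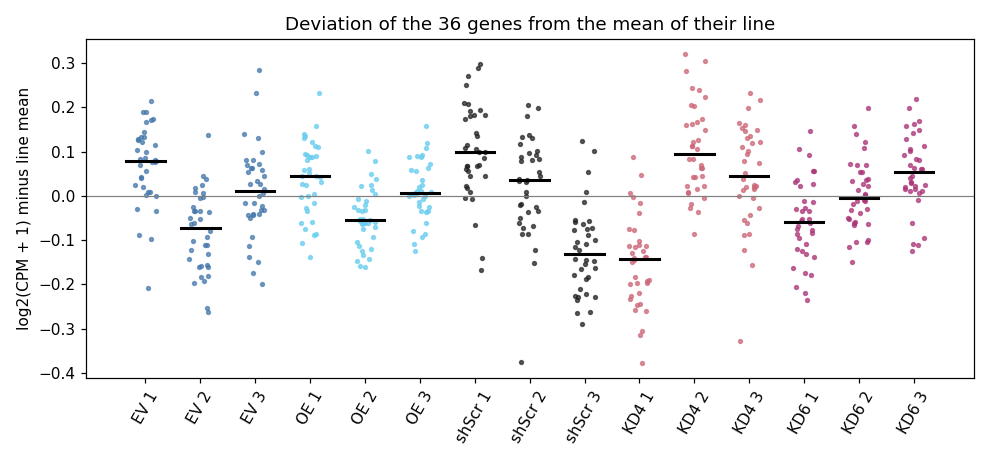
Deviation of each of the 36 genes (points) from the mean of its line in each of the 15 libraries, on the log2(CPM + 1) scale, with the median as a black bar. The points of KD4 replicate 1 (median -0.14) and shScr replicate 3 (-0.13) lie mostly below 0 and those of shScr replicate 1 (0.10) mostly above.

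Transcripts were tested as well. The 32 members in the transcript table had 50 of its 30220 transcripts. None passed in OE against EV, where 0% of all transcripts did (2 of 50 and 2917 of 30220 with an unadjusted p under 0.05), and none in KD against shScr, where 0.295% did (5 of 50 and 3633 of 30220). The smallest p in OE against EV belonged to ENSMUST00000160457 of Zfp945, at 5.36, 3.52 and 3.57 CPM in EV and 1.64, 3.10 and 2.36 in OE, without overlap (log2 change -0.62, adjusted p = 0.485). Zfp984 had 2 transcripts among the next, ENSMUST00000105734 with a log2 change of -0.59 (adjusted p = 0.485) and ENSMUST00000122309 with 0.26 (adjusted p = 0.521). ENSMUST00000105734 stood at 7.28, 5.43 and 8.30 CPM in EV and at 3.07, 5.04 and 4.87 in OE, and the gene mean of Zfp984 was 12.5 CPM in EV and 12.2 in OE. ENSMUST00000202692 of Zfp958 came after these (log2 change -0.27, adjusted p = 0.524). In KD against shScr, ENSMUST00000122309 of Zfp984 (log2 change -0.41, adjusted p = 0.307) and ENSMUST00000131237 of Zfp961 (-0.46, adjusted p = 0.394) followed those of Zfp979.

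Position and sequence were read as well. The symbol Zfp names zinc finger genes, so the choice by name already favoured genes with fingers. The 36 genes lie on 11 chromosomes, with 10 on chromosome 17, 5 each on chromosomes 4, 7 and 8, 4 on chromosome 2 and 2 on chromosome 5. On chromosome 17 Zfp942 and Zfp943 are direct neighbours, as are Zfp971 and Zfp931 on chromosome 2. Of the 35 with a coding transcript in GENCODE M1, all had at least 1 C2H2 finger by the spacing of its cysteines and histidines, with a median of 11 and up to 21 in Zfp974, and 27 had the KRAB pattern. In 15 of 35, over 10% of 50-base stretches also occur in another gene. Among them is Zfp932 (55.4%), a known repressor of endogenous retroviruses, which stood at 8.42 ± 0.938 CPM in EV, 8.54 ± 0.799 in OE, 9.07 ± 1.36 in shScr, 7.79 ± 0.654 in KD4 and 9.05 ± 1.5 in KD6 (SD, n = 3) and passed nowhere.

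Of the 32 promoter windows, 22 (68.8%) held a CCAAT box, beside 37.9% of all 27025 windows, 13 (40.6%) a GC box, beside 35.9%, and 0 a TATA box (TATAAA or TTTATA), beside 14.2%. The 27025 windows include those of genes without a row here, while all members had a row. Members of a cluster have related promoters, so these windows are not independent. Zfp930, Zfp934, Zfp991 and Zfp992 had no window in the table.

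The proteins through which KRAB zinc finger proteins act were read from a list of 36 genes. Trim28 stood at 224 to 246 CPM as a line mean and Setdb1 at 69.7 to 78.2. Neither passed in OE against EV, in KD against shScr or in KD6 against KD4. The list had no pass in OE against EV (median log2 change 0.02). In KD against shScr 1 of 36 passed (2.78%, beside 2.66% of all genes), a share close to that of all genes. This was Chd3, a NuRD helicase, which fell from 292 ± 13.2 CPM in shScr (n = 3) to 219 ± 16.0 in KD (n = 6; log2 change -0.42, adjusted p = 0.0122). All KD libraries of Chd3 lay below all shScr libraries. In KD4 2 of 36 passed (5.56%, beside 9.58% of all genes), as Chd3 fell (-0.48, adjusted p = 0.00321) and Uhrf1, the reader of hemimethylated DNA, rose (0.22, adjusted p = 0.0441). In KD6 2 of 36 passed (5.56%, beside 2.91%), as Chd3 (-0.36, adjusted p = 0.0313) and Cbx5, the HP1 alpha protein (-0.31, adjusted p = 0.0459), fell. Mta2, a NuRD subunit, was lower in KD6 than in KD4 (-0.28, adjusted p = 0.0415), as 1 of 36 (2.78%, beside 4.91% of all genes).

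Between the controls, 6 of 35 genes of this list passed in the 5-line fit (17.1%, close to the 15.8% of all genes). Higher in EV were 2, Uhrf1 (log2 change 0.23, adjusted p = 0.00836) and the histone binding protein gene Rbbp7 (0.30, adjusted p = 0.0227). Morc2a, a partner of the HUSH silencing complex (-0.32, adjusted p = 0.00298), Cbx5 (-0.26, adjusted p = 0.00758), Chd3 (-0.22, adjusted p = 0.0425) and Setdb1 (-0.26, adjusted p = 0.0496) were lower in EV than in shScr. These values are from transcript sums, in which Setdb1 was at 52.7 CPM in EV and 63 in shScr and Rbbp7 at 279 and 225, while the gene tables hold smaller differences for both, 69.7 and 76.9 CPM for Setdb1 and 282 and 256 for Rbbp7. All 6, Chd3 and Cbx5 among them, passed in the fit in which Zfp979 did, and a link to Zfp979 was not tested. The median of the list was 0.00 in KD and -0.03 in EV against shScr.

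Other Zfp genes passed at shares below those of all genes in each of the comparisons given here. Of 256 in the hairpin table, 4 rose and 1 fell in KD against shScr (1.95%, beside 2.66% of all genes), 11 rose and 8 fell in KD4 (7.42%, beside 9.58%), and 2 rose and 1 fell in KD6 (1.17%, beside 2.91%), with medians of -0.02, -0.03 and -0.02. In KD6 against KD4, 4 were higher and 1 lower (1.95%, beside 4.91%). None of 259 passed in OE against EV, where 15 had an unadjusted p under 0.05. Between the controls 6 of 250 were higher in EV and 12 lower (7.20%, beside 15.8%), with a median of -0.02. The shScr libraries lay apart from the other 12 libraries in 17 of 256 of these genes, 12 above and 5 below, beside the 1 of 36 given for Zfp979.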

How the data were processed

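RNA of 15 libraries of 6DT1 cells was sequenced on a HiSeq2500 from samples with an RNA integrity number over 7. The deposited values are CPM that the authors computed per gene (OE with EV, and hairpin lines with shScr) and per transcript (all lines). The labels name STAR 2.7.8a and mm39, while the methods of the study give an earlier aligner with mm9, so which of these made the values is not settled. No row had a geometric mean below 1 CPM. The transcript table holds 15 further per-library columns that match no sample label, which were not used, nor were the authors' fold changes and p values. Depth is unknown and no whole reads could be recovered.

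Values were transformed to log2(CPM + 1), with a pseudocount of 1, and fitted with limma 3.58.1 (trend, empirical Bayes) in R 4.3.3, adjusted by Benjamini and Hochberg over all rows. Fits were OE against EV, KD (6 libraries) against shScr, KD4, KD6 and shScr as 3 groups, and all 5 lines on transcript values summed per gene. OE against shScr, EV against KD4 or KD6, and the difference of OE and KD effects were added after the data were seen. Only OE against EV, and KD, KD4 and EV against shScr, each per gene, were tested on simulated data. The other comparisons were not. Members and gene lists were chosen with earlier results of these data known. Named genes were Smarcd1, every member that passed, the 4 smallest p that did not pass per comparison, the 4 highest and 4 lowest mean CPM, Trim28, Setdb1 and KRAB partners that passed, and the transcripts with the 4 smallest p; Zfp932, Zfp974, Zfp971, Zfp984, Zfp933 and members without overlap were named for position, sequence or pattern after their values were seen. Alternatives were a pseudocount of 0.1, a minimum mean of 5 CPM, quantile normalization, a replicate block, the mean of the hairpins, transcript sums, and leaving out each library.

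Promoters came from RefSeq (GRCm38.p6), exon lengths, fingers and shared stretches from GENCODE M1 (NCBIM37). Symbols matched 88.1% and 87.3% of gene identifiers. Plots used matplotlib 3.10.9 (Python 3.11.15).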

Additional observations from a re-analysis of the deposited data

Results flagged for a closer look

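Among the 6 KD libraries, KD4 replicate 1 was far below the others for Zfp948 (29.3 CPM, others 35 to 38) and for Zfp971 (7.79 CPM, others 9.59 to 10.6). Of the 36 genes 2 were so marked, and chance marks about 1 in 20. KD4 replicate 1 is also the library in which 33 of 36 members lay below the mean of their line.

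The effects of OE (against EV) and KD (against shScr) differed by the test of the difference for Zfp979 (1.04 on the log2 scale, adjusted p = 0.0117, limma), and likewise for Smarcd1 (0.86, adjusted p = 0.00391), Chd3 (0.40, adjusted p = 0.0405) and Cbx5 (0.32, adjusted p = 0.0395). Zfp979 was lower in all 6 KD libraries than in all 3 shScr libraries and overlapped between OE and EV. In the gene tables its line mean was 15 CPM in shScr and 5.34 to 6.39 in the other lines. Chd3 was at 292 CPM in shScr, 238 in EV, 243 in OE, 210 in KD4 and 228 in KD6. Cbx5 was at 426, 348, 363, 372 and 343 in the same order. Zfp979, Chd3 and Cbx5 thus had their highest line mean in shScr, which enters this test on the KD side only. The differences of effects come from transcript sums. For Smarcd1 the sums gave a log2 change of 0.34 in OE against EV, where the gene table gave 1.12, so 0.86 is smaller than the gene tables would give. KD6 and KD4 differed for Smarcd1 (log2 change 0.60, adjusted p = 0.00292) and Mta2 (-0.28, adjusted p = 0.0415).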

How the results depend on the processing

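The calls of members in OE against EV (0), in KD, KD4 and KD6 against shScr (Zfp979 each time) and in KD6 against KD4 (0), and of member transcripts (0), were the same under every alternative run. In EV against shScr 2 members passed, 1 with a minimum mean of 5 CPM (Zfp992 is under that level) and 1 with the replicate block, and 1 to 3 with a library left out. In OE against shScr 2 passed, 1 with the minimum mean, 1 with the block, and 1 to 2 with a library left out. In the difference of OE and KD effects 1 passed and 0 with the replicate block. The log2 change of Zfp979 in EV against KD4 was -0.07 and ran from -0.13 to 0.04 with a library left out, turning to 0.04 without EV replicate 3, none of them called. Zfp950, Zfp933 and Zfp995 passed in EV against shScr without KD4 replicate 1 (adjusted p = 0.0371), shScr replicate 3 (0.0452) and EV replicate 2 (0.0360). The replicate number gave no clear pairing of the samples. Same-numbered libraries correlated at -0.149 to 0.258 (OE and EV) and -0.328 to 0.0614 (hairpin lines) in their deviations from the line mean. Libraries with unlike numbers correlated at -0.329 to 0.224 and -0.332 to 0.422. The highest value in OE and EV was that of both replicates 2 (0.258), and a shared seeding day was not tested. With the block, calls over all genes went from 364 to 114 in KD against shScr and from 2078 to 990 in EV against shScr. Calls in KD against shScr over all genes were 847 when both hairpin lines were averaged in the 3-group fit, 1104 with transcript sums and 92 to 397 with a library left out. Quantile normalization changed the 717 higher and 353 lower genes of OE against shScr to 581 and 463. A group of 3 keeps 2 libraries when 1 is left out. Depth is unknown, so what a deeper library would show for genes near 1 CPM, such as Zfp964, was not detectable here.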
